A study of Mus musculus with 6 samples.

Results

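The genes described here are the cholinergic genes of N1E115 cells, 10 genes that make, package, take up and break down the transmitter acetylcholine or form its ganglionic nicotinic receptors: Ache, Bche, Chat, Slc18a3, Slc5a7, Colq, Prima1, Chrna3, Chrna7 and Chrnb4. They were taken by symbol from a table of 23358 gene rows, and all 10 had a row. N1E115 is a clonal mouse line from the C1300 neuroblastoma, a tumour of the sympathetic lineage, which the labels call a neuroblast of brain and positive for NOS1, neuronal nitric oxide synthase. RNA was sequenced from cells kept for 3 days at 4% oxygen or at 20% oxygen, the level of room air, with 3 libraries at each level and no other agent named. The comparison asks which transcripts differ between the low and the ambient level. Whether each library stands for its own culture is not stated, so the spread that the p-values rest on may be technical.

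Acetylcholine is made from choline and acetyl-CoA by choline acetyltransferase (Chat), loaded into vesicles by the vesicular acetylcholine transporter (Slc18a3), and split at the synapse by acetylcholinesterase (Ache), after which choline is taken back up by the high-affinity choline transporter (Slc5a7). Butyrylcholinesterase (Bche) is the related enzyme of plasma and glia, and acetylcholinesterase is held in place by a collagen tail at the neuromuscular junction (Colq) or by a membrane anchor in the brain (Prima1). In autonomic ganglia the main nicotinic receptor pairs the α3 subunit (Chrna3) with β4 (Chrnb4), and α7 (Chrna7) forms receptors by itself. Acetylcholinesterase is also made by many neurons that do not release acetylcholine.

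Libraries held 130915724, 163695286 and 145889456 counts over genes at 4% oxygen, against 129849604, 124259152 and 139216400 at 20% oxygen. All counts were even (100%), so 1 read pair is worth 2 counts. Library 1 at 20% oxygen stood apart: its log2 levels correlated with those of the other libraries at 0.951 to 0.962, while each of the others reached 0.978 to 0.980 with its nearest. Where leaving it out moved a member's value by over 1.5 times, this is said below. Of 14 fixed sympathoadrenal markers 13 passed the filter on low counts, led by Chgb, and their summed level was 6350 to 7610 CPM (counts scaled to library size) at 4% oxygen and 4554 to 4772 CPM at 20% oxygen. Markers of central cholinergic neurons summed to 2.59 to 3.02 CPM at 4% oxygen and 1.37 to 3.37 CPM at 20% oxygen, with Lhx8 at 3 counts or fewer in every library. The other marker lists, for muscle, Schwann cells and glia, fibroblasts, immune and erythroid cells, each summed to at most 16.1 CPM at 4% oxygen and 12.6 CPM at 20% oxygen, with Myod1, Myf5, Lum and Cd3e at 3 counts or fewer in every library. The labelled oxygen levels were checked on 2 known targets of hypoxia-inducible factors: the glucose transporter Slc2a1 had 212, 193 and 146 CPM at 4% oxygen, against 67.4, 39.7 and 40.7 CPM at 20% oxygen, and the prolyl hydroxylase Egln3 had 98.2, 107 and 101 CPM, against 29.6, 10.3 and 25.2 CPM. Their log2 fold changes of 1.90 (SE 0.29) and 2.23 (SE 0.36) both had an adjusted p of 0.112 in edgeR, which missed the threshold, and of 0.0222 and 0.0355 once the replicate number was a block.

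Ache was the cholinergic gene with the largest difference, about 4 times as abundant at 4% as at 20% oxygen, and the other 5 members that could be tested passed under none of the settings run. Ache had 162, 88.8 and 141 CPM in libraries 1, 2 and 3 at 4% oxygen, against 37.5, 17.2 and 41.2 CPM at 20% oxygen, after TMM scaling of libraries. The groups did not overlap, and the lowest library at 4% oxygen was above the highest at 20% oxygen. The same held for 948 of the 14979 genes tested (6.33%). Library 2 was the lowest of its group at both oxygen levels. Means were 131 ± 37.6 CPM at 4% oxygen, against 31.9 ± 12.9 CPM at 20% oxygen (SD, n = 3 each). Between libraries of the same number, the level at 4% oxygen was 4.32, 5.18 and 3.43 times that at 20% oxygen. On the authors' scale per kilobase (RPKM) Ache had 44.9, 26.8 and 44.8 at 4% oxygen, against 10.6, 5.20 and 10.8 at 20% oxygen. The summed sympathoadrenal markers were likewise higher at 4% oxygen without overlap, and their part in the Ache difference was not tested. These bulk libraries cannot tell fewer cells with a transcript from less of it per cell.

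The call on Ache depended on the test. Across all 14979 genes tested, edgeR's quasi-likelihood test without a term for the replicate number gave a log2 fold change of 2.03 (SE 0.36) and a Benjamini-Hochberg adjusted p of 0.2, which missed the threshold of 0.05. That fit called 0 genes higher (0%) and 0 lower (0%), although 451 genes (3.01%) were higher and 213 (1.42%) lower at an unadjusted p under 0.05. Only 9 genes (0.0601%) had a smaller p than Ache and 33 (0.22%) a larger log2 fold change. What a replicate number marks is not stated in the labels. In these same counts, deviations from group means correlated at 0.273, 0.434 and 0.223 between libraries of the same number. As the deviations of 3 libraries sum to 0 within a group, these values do not establish that libraries were paired. With the replicate number as a block, edgeR gave a log2 fold change of 2.09 (SE 0.22) and an adjusted p of 0.0222 for Ache. Under the block 11 genes were called higher (0.0734%) and 0 lower (0%), and Ache was the one cholinergic member among them. DESeq2 called it too, with a log2 fold change of 2.01 and an adjusted p of 9.07e-05, beside 53 genes higher (0.354%) and 6 lower (0.0401%). So did edgeR with no filter on low counts, with a log2 fold change of 2.03 and an adjusted p of 0.00766. That fit took in 18732 genes, low-count rows among them, and called 0.133% of them higher and 0.0107% lower. Why the adjusted p was smaller there at the same estimate was not tested. limma-voom did not call Ache, with a log2 fold change of 2.08 and an adjusted p of 0.152, and it called 0 genes. Leaving out each library in turn kept the log2 fold change between 1.73 and 2.26, with edgeR adjusted p-values of 0.0962 to 0.844. In those fits the one gene called was lower (0.00654%, without library 3 at 4% oxygen) and was no member.

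**Figure D1:**
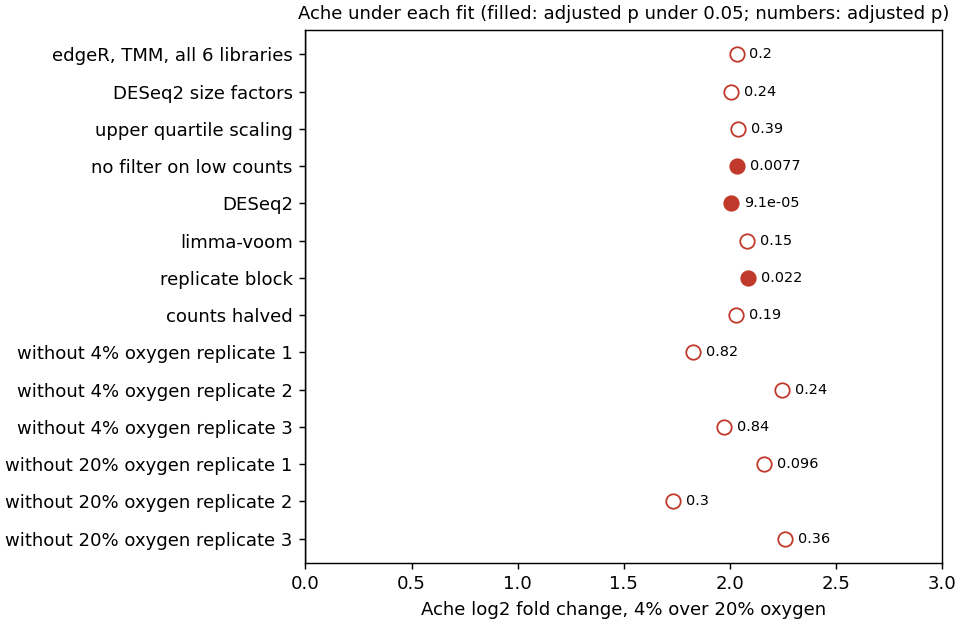
Log2 fold change of Ache at 4% over 20% oxygen under the edgeR fit and each alternative, with filled points for an adjusted p under 0.05 and that p printed beside each point. All estimates lie between 1.73 and 2.26, and 3 settings pass the threshold: no filter on low counts, DESeq2 and the replicate block.

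Ache lies on the plus strand at chr5:137288277-137294463 in mm10, with a deposited coding length of 2183 bases, and has 9 transcripts in GENCODE mouse release M21. Of its exon bases 98 overlap an exon of Gm42456 on the other strand, and since strand use in counting is not given in the sources used here, reads of the pair cannot be told apart. A promoter stretch is shown for Ache as the member with the largest difference, whose call depended on the test. Chrna7 is shown because it carries the same E-box letters at a level that overlaps between groups, and Prima1 as the anchor of the enzyme. The sequences are from RefSeq on GRCm38.p6, the assembly that mm10 names, read 5′ to 3′ on the strand of the gene, and capitals mark ACGTG or GCGTG on either strand, the letters at the core of sites that hypoxia-inducible factors bind. The Ache stretch is chr5:137288038-137288253 (+), the Chrna7 stretch chr7:63212550-63212776 (-) and the Prima1 stretch chr12:103242147-103242396 (-).
Ache: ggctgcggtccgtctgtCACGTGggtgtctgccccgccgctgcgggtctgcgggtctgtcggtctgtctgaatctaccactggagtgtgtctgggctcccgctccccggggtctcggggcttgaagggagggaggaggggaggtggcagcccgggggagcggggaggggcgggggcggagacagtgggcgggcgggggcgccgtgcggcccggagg
Chrna7: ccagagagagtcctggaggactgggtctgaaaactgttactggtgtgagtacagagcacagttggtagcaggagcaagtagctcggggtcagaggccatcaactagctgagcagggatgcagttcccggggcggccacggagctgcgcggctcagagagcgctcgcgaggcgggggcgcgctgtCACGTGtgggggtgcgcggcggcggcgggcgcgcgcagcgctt
Prima1: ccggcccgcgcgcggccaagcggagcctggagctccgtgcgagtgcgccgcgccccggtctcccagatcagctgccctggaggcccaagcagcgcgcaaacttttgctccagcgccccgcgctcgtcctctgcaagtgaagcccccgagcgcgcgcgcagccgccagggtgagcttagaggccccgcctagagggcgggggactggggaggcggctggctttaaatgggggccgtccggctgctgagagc
The search covered both strands of the 250 bases before each RefSeq start, counted back from -1 at the base next to the start, and 9 of the 10 members had such a window. The palindrome CACGTG, which holds ACGTG on both strands, lay at -199 to -194 in Ache, at -66 to -61 in Chrna7 and at -98 to -93 in Chat. These 3 of 9 members compare with 6.02% of 32851 promoter windows that hold CACGTG and 16.6% that hold ACGTG. The letters GCGTG occurred in 2 of 9, at -243 to -239 in Ache, upstream of the printed stretch, and on the opposite strand at -212 to -208 in Chrnb4, and in 28.2% of all windows. Ache was the one member with both 5-letter strings, which 6.13% of all windows held together. In GENCODE an exon of Ache itself reaches into its window, over the GCGTG and part of the CACGTG. The GCGTG of Chrnb4 likewise lies in an exon of Chrnb4. Ache also held 4 matches of GGGCGG, the letters of a GC box, and 2 of GCGGGGGCG, which Egr1 and its relatives bind and which overlap the GC boxes. GGGCGG was in 6 of 9 members and 32.7% of all windows, and GCGGGGGCG was in 2 of 9 (Ache and Chrna7) and 2.57% of all windows. A match is a string of letters and says nothing of binding in these cells.

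The gene next to Ache was also more abundant at 4% oxygen. Ufsp1, the gene of a protease that matures or removes the ubiquitin-like protein UFM1, starts 205 bases beyond the end of Ache on the same strand, at chr5:137294669-137295664. Ufsp1 had 15.6, 12.4 and 16.2 CPM at 4% oxygen, against 4.85, 6.44 and 8.42 CPM at 20% oxygen. The groups did not overlap, as for 948 genes (6.33%) that were higher without overlap. Its edgeR log2 fold change was 1.16 (SE 0.30) with an adjusted p of 0.542, against 0.152 under the block and 0.0657 in DESeq2, so it did not pass. Per length, the Ufsp1 level was 21.1%, 30.5% and 25.2% of that of Ache at 4% oxygen and 28.4%, 82.3% and 44.8% at 20% oxygen. Whether reads that run past the end of Ache were counted for Ufsp1 was not tested. The next genes, Srrt at 1240 bases and Trip6 at 15435 bases, both on the other strand, had log2 fold changes of 0.10 (SE 0.37) and -0.07 (SE 0.43), which did not pass.

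The other cholinesterase and the collagen tail were scarce. Bche, at chr3:73635809-73708415, had 0 counts in all 6 libraries, which allows a level of at most 0.0375 to 0.0496 CPM per library, taking 3 read pairs as the limit for counting error only. It was the one member not detected, which here means 3 counts or fewer in every library. Ache therefore made up 100% of cholinesterase transcripts per length in each library, and with no Bche read the share was not tested. Colq, at chr14:31523084-31577383, had 0, 2 and 4 counts at 4% oxygen, against 18, 4 and 0 counts at 20% oxygen, too few to be tested, and 199 of its exon bases overlap Gm49387 on the same strand.

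Prima1, the membrane anchor of acetylcholinesterase at chr12:103196908-103242146, was even among libraries at 4% oxygen and varied at 20% oxygen. It had 23.0, 19.8 and 20.1 CPM at 4% oxygen, against 5.49, 9.17 and 21.4 CPM at 20% oxygen. The groups overlapped, because library 3 at 20% oxygen lay within the range of the 4% oxygen libraries. Prima1 averaged 21.0 ± 1.75 CPM at 4% oxygen, against 12.0 ± 8.31 CPM at 20% oxygen (SD, n = 3 each). The level at 4% oxygen was 4.18 and 2.16 times that at 20% oxygen between libraries 1 and libraries 2, and 0.941 times between libraries 3. The edgeR log2 fold change of 0.80 (SE 0.42) had an adjusted p of 0.996, and the block gave 1.03 (SE 0.37) with 0.457, so Prima1 did not pass. The log2 fold change was 0.46 without library 1 at 20% oxygen and 1.52 without library 3. Set against the enzyme per length, the anchors Prima1 and Colq together came to 34.2%, 53.7% and 34.4% of the Ache level at 4% oxygen, and to 35.6%, 129% and 125% at 20% oxygen. The log2 ratio was -1.33 ± 0.37 at 4% oxygen and -0.27 ± 1.06 at 20% oxygen (SD, n = 3 each), a difference of -1.06 with an exact two-sided permutation p of 0.2, or 0.3 adjusted by Benjamini-Hochberg over the 3 ratios tested. The difference was -1.67 without library 1 at 20% oxygen. With 3 libraries against 3 the smallest p this test allows is 0.1.

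The synthesis gene Chat was low, and the packaging and uptake genes Slc18a3 and Slc5a7 had almost no counts. Chat, at chr14:32408203-32465909, had 116, 46 and 64 counts at 4% oxygen, against 36, 40 and 66 counts at 20% oxygen, or 0.841, 0.287 and 0.419 CPM against 0.279, 0.330 and 0.495 CPM. The groups overlapped, and the highest value, library 1 at 4% oxygen, set the direction: the edgeR log2 fold change was 0.48 (SE 0.62, adjusted p = 0.996) with it and -0.08 without it. Without library 1 at 20% oxygen it was 0.32. Slc18a3, whose body at chr14:32462437-32464850 lies within that of Chat on the same strand, had 0, 0 and 0 counts at 4% oxygen, against 0, 2 and 6 counts at 20% oxygen. Slc5a7, at chr17:54273590-54299034, had 0, 0 and 0 counts at 4% oxygen, against 0, 0 and 4 counts at 20% oxygen. Neither reached the filter, so no fold is given. With at most 6 and 4 counts in a library, both were barely above the limit for not detected. A count of 0 allows up to 0.0375 to 0.0496 CPM in a library, and a difference between the groups was not detectable at this depth.

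**Figure D2:**
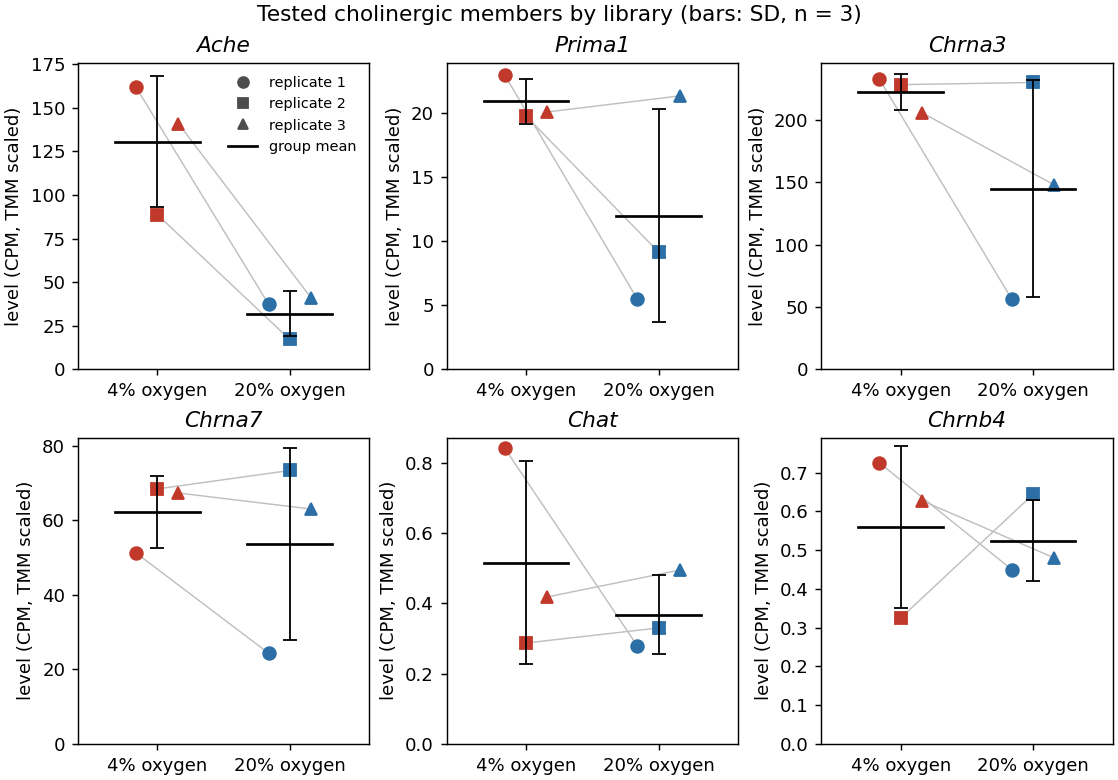
Level of each tested member in CPM by library, with 4% oxygen left of 20% oxygen, a marker for each replicate number and bars for the mean and SD (n = 3). Ache is the one panel in which the groups do not overlap, with 88.8 CPM as the lowest value at 4% oxygen and 41.2 CPM as the highest at 20% oxygen. Of all genes tested, 6.33% were higher at 4% oxygen without overlap and 3.72% lower.

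Among the receptor genes, Chrna3 was the most abundant nicotinic subunit transcript per length at both oxygen levels, and Chrnb4, its usual partner in ganglia, was scarce. Chrna3, at chr9:55011343-55026559, had 233, 228 and 206 CPM at 4% oxygen, against 56.1, 230 and 148 CPM at 20% oxygen. The groups overlapped: library 2 at 20% oxygen was as high as the 4% oxygen libraries, and library 1 was the low one. Chrna3 averaged 222 ± 14.3 CPM at 4% oxygen, against 145 ± 87.0 CPM at 20% oxygen (SD, n = 3 each). Its edgeR log2 fold change of 0.62 (SE 0.40) had an adjusted p of 0.996. The block gave 0.82 (SE 0.35) and an adjusted p of 0.525. Without library 1 at 20% oxygen the log2 fold change was 0.23, and without library 2 it was 1.13.

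Chrna7, at chr7:63098692-63212526, had 51.3, 68.5 and 67.4 CPM at 4% oxygen, against 24.4, 73.4 and 63.1 CPM at 20% oxygen. Again library 1 at 20% oxygen was the low one and the groups overlapped. The edgeR log2 fold change was 0.22 (SE 0.36, adjusted p = 0.996), and it was -0.13 without library 1 at 20% oxygen. Chrnb4, which lies 1596 bases from Chrna3 on the same strand at chr9:55028156-55048544, had 100, 52 and 96 counts at 4% oxygen, against 58, 78 and 64 counts at 20% oxygen. These are 0.725, 0.325 and 0.628 CPM, against 0.450, 0.644 and 0.480 CPM, and overlap throughout. Its edgeR log2 fold change was 0.09 (SE 0.55, adjusted p = 0.996) and took the other sign without library 1 or 3 at 4% oxygen or library 1 at 20% oxygen, so no direction is given.

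Per length, the authors' RPKM put Chrna3 at 46.3 ± 1.59 at 4% oxygen and 29.0 ± 18.9 at 20% oxygen, and Chrna7 at 19.6 ± 4.11 and 15.9 ± 8.09 (SD, n = 3 each). The β2 subunit Chrnb2, a partner of α subunits in the brain, followed with 6.57 ± 2.25 RPKM at 4% oxygen and 5.54 ± 2.18 RPKM at 20% oxygen. The accessory subunit Chrna5, which is a neighbour of Chrna3, had 1.62 ± 0.435 RPKM at 4% oxygen and 1.004 ± 0.187 RPKM at 20% oxygen. The muscle subunits Chrna1 and Chrnb1 averaged 0.650 and 0.337 RPKM at 4% oxygen, and 0.815 and 0.337 RPKM at 20% oxygen. Chrnb4 averaged 0.104 ± 0.0371 RPKM at 4% oxygen and 0.0937 ± 0.0246 RPKM at 20% oxygen, and Chrna4 0.0255 and 0.0584 RPKM. The order Chrna3, Chrna7, Chrnb2 and Chrna5 held in all 6 libraries.

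Chrna3 made up 66.6%, 59.6% and 59.3% of the summed RPKM of the 8 tested nicotinic subunits at 4% oxygen, and 44.7%, 59.5% and 52.7% at 20% oxygen. Chrna7 was 32.9%, 44.8% and 48.9% as abundant as Chrna3 per length at 4% oxygen, and 64.9%, 47.7% and 63.7% at 20% oxygen. Its log2 ratio to Chrna3 was -1.27 ± 0.30 at 4% oxygen and -0.78 ± 0.25 at 20% oxygen, a difference of -0.48 (exact two-sided permutation p = 0.2, adjusted 0.3 over 3 ratios). Chrnb4 was 0.279%, 0.127% and 0.273% as abundant as Chrna3 at 4% oxygen, and 0.718%, 0.251% and 0.291% at 20% oxygen. That log2 ratio was -8.87 ± 0.64 at 4% oxygen and -8.06 ± 0.82 at 20% oxygen, a difference of -0.81 (exact two-sided permutation p = 0.4, adjusted 0.4). Leaving out 1 library moved the Chrnb4 difference to -0.34 (library 1 at 20% oxygen) or -0.44 (library 2 at 4% oxygen), and the Chrna7 difference to -0.32 (library 1 at 4% oxygen). None of the 3 ratios passed. Each was lower at 4% oxygen in all 3 same-numbered pairs, for which an exact sign-flip permutation test gave p = 0.25, the smallest that 3 pairs allow.

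**Figure D3:**
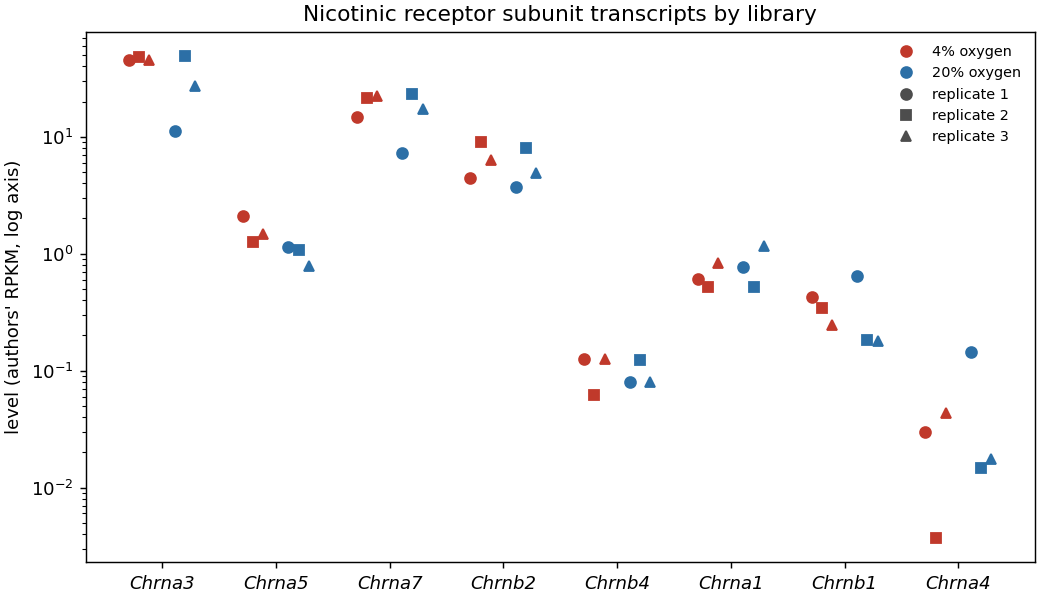
Level of the 8 tested nicotinic subunit transcripts in each library as the authors' RPKM on a log axis, with 4% oxygen left of 20% oxygen for each gene and a marker for each replicate number. Chrna3 and Chrna7 lead, Chrnb2 follows, and Chrnb4 lies near 0.1 RPKM in both groups.

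Ordered by mean RPKM at 4% oxygen, the members ran Chrna3 (46.3 ± 1.59), Ache (38.8 ± 10.4), Chrna7 (19.6 ± 4.11), Prima1 (15.1 ± 0.580), Chat (0.117 ± 0.0584) and Chrnb4 (0.104 ± 0.0371). At 20% oxygen the order was Chrna3 (29.0 ± 18.9), Chrna7 (15.9 ± 8.09), Ache (8.88 ± 3.19), Prima1 (8.004 ± 5.03), Chrnb4 (0.0937 ± 0.0246) and Chat (0.0802 ± 0.0199). Neighbours whose SDs overlapped at 4% oxygen were Chrna3 with Ache, Chrna7 with Prima1 and Chat with Chrnb4. At 20% oxygen every neighbouring pair did, except that Prima1 lay above Chrnb4. The SDs do not compare genes within a library. There Chrna3 was above Ache in every library at 4% oxygen and above Chrna7 in every library at 20% oxygen. The other overlapping pairs changed order between libraries.

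Of the 10 members 6 were tested, 4 were too scarce and 0 were called by edgeR without the block, in a comparison that called 0% of genes in either direction. At an unadjusted p under 0.05 that fit gave 1 higher (Ache) and 0 lower, beside 3.01% and 1.42% of all genes. Under the block 1 was called (Ache, beside 0.0734% of all genes), and at an unadjusted p under 0.05 there 3 were higher (Ache, Prima1 and Chrna3) and 0 lower, beside 6.01% and 2.86% of all genes. All 6 estimates were positive (median 0.55 on the log2 scale), as were 7085 of the 14979 genes tested (median -0.03). For 3 of the 6 (Chat, Chrna7 and Chrnb4) the sign depended on a single library, so this count describes the estimates and is no result about the group.

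A wider list of 75 cholinergic genes was read from the same fit, and all 75 had a row. Of the 53 tested, 0 passed at an adjusted p under 0.05 with or without the block. At an unadjusted p 3 were higher (5.66%) and 1 lower (1.89%), beside 3.01% and 1.42% of all genes, and under the block 9 were higher (16.98%) and 1 lower (1.89%), beside 6.01% and 2.86%. The median log2 fold change without the block was -0.01, beside -0.03 for all genes. In 7 of the 53 the 4% oxygen libraries were all higher and in 3 all lower (13.2% and 5.66%), beside 6.33% and 3.72% of all genes. The genes named below had the smallest p in their sets, except Chrm4, named for its level, and none passed.

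For choline and acetyl-CoA supply, 20 of 22 genes were tested, with a median log2 fold change of -0.08. Chka, the choline kinase that diverts choline to phospholipid synthesis, had 23.8, 23.0 and 21.1 CPM at 4% oxygen, against 69.6, 33.7 and 28.6 CPM at 20% oxygen. All 20% oxygen libraries were above all those at 4%, with library 1 the highest. The edgeR log2 fold change was -0.96 (SE 0.33, adjusted p = 0.996), and -0.46 without that library. Pcyt1b, an enzyme of the same pathway, was at 10.3, 13.3 and 13.2 CPM at 4% oxygen, against 5.37, 7.22 and 9.87 CPM at 20% oxygen (log2 fold change 0.71, SE 0.31).

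Of 5 muscarinic receptors 4 were tested. Chrm4 was the most abundant, with 11.2, 18.9 and 11.8 CPM at 4% oxygen, against 17.8, 17.7 and 14.0 CPM at 20% oxygen, an overlapping pair of groups (log2 fold change -0.24, SE 0.29). Chrm1, which couples to phospholipase C, had 3.42, 1.46 and 2.38 CPM at 4% oxygen, against 1.57, 0.496 and 1.44 CPM at 20% oxygen, and was higher at 4% oxygen in all 3 same-numbered pairs, as were 17.3% of genes. Its edgeR log2 fold change was 1.05 (SE 0.52) with an adjusted p of 0.996, and 0.359 under the block; leaving out 1 library moved it between 0.69 and 1.32. For Chrm3 it was 0.80 (SE 0.61), or 0.44 without library 1 at 20% oxygen.

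Among the 13 other nicotinic subunits 5 were tested, and Chrna5 was the one with the smallest p. It had 9.52, 5.27 and 5.86 CPM at 4% oxygen, against 5.04, 4.48 and 3.77 CPM at 20% oxygen, without overlap (log2 fold change 0.64, SE 0.34, edgeR adjusted p = 0.996). Without library 1 at 4% oxygen the log2 fold change was 0.31. Of the genes that anchor cholinergic synapses 6 of 7 were tested. Dag1, dystroglycan, had 59.1, 81.8 and 74.7 CPM at 4% oxygen, against 44.1, 50.3 and 34.6 CPM at 20% oxygen, without overlap (log2 fold change 0.74, SE 0.25, adjusted p = 0.963). The agrin receptor Lrp4 was low at both levels, with a log2 fold change of -0.86 (SE 0.46). Of the chaperones and Ly6 modulators of nicotinic receptors 5 of 12 were tested, with a median of -0.06, and Lynx1 and Tmem35a had log2 fold changes of 0.58 (SE 0.63) and -0.50 (SE 0.57). Leaving out 1 library moved Lynx1 between 0.12 and 1.45 and Tmem35a between -0.79 and -0.19.

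Identity factors of cholinergic and autonomic neurons and their receptors gave 13 tested genes of 16 and a median log2 fold change of -0.01. Phox2a, a homeodomain factor of autonomic neurons, had 86.3, 150 and 135 CPM at 4% oxygen, against 42.5, 73.4 and 71.0 CPM at 20% oxygen. The groups did not overlap, and the edgeR log2 fold change of 0.99 (SE 0.30) had an adjusted p of 0.781, or 0.128 under the block. The immediate early factor Egr1 stood at a log2 fold change of 0.63 (SE 0.30), or 0.36 without library 3 at 4% oxygen.

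**Figure D4:**
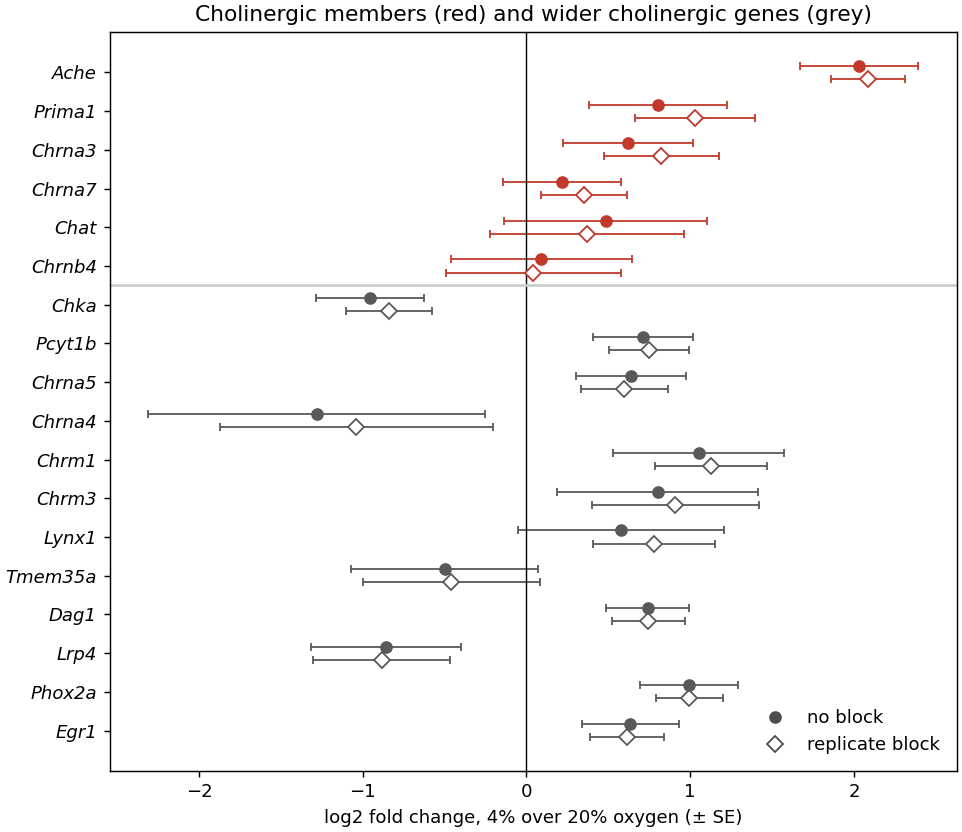
Log2 fold change at 4% over 20% oxygen (± SE) of the 6 tested members and the named genes of the wider list in the edgeR fits without the block (circles) and with it (diamonds). Ache is farthest above 0 at 2.03, and Chrna4 is farthest below at -1.28 with a wide error.

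The genes whose levels followed Ache most closely were sought among the 10334 tested genes that averaged 5 CPM or more, by Pearson correlation of log2 CPM over the 6 libraries. As the points share libraries and the oxygen difference, the values are a description. The 5 highest were 3110057O12Rik (0.998), Slc18a1 (0.984), Rnf208 (0.980), Xylt2 (0.979) and Btg2 (0.978). Each had non-overlapping groups and its lowest level in library 2 at both oxygen levels, as Ache did. Picking genes by their correlation with Ache favours that pattern. Slc18a1, a vesicular monoamine transporter of chromaffin cells, had 23.6, 7.84 and 15.5 CPM at 4% oxygen, against 4.58, 1.82 and 3.99 CPM at 20% oxygen. Its edgeR log2 fold change was 2.17 (SE 0.46) with an adjusted p of 0.363, and 0.0222 under the block. The log2 fold changes of the others were 1.61 for Rnf208, a RING finger protein, 1.20 for Btg2, an antiproliferative factor, 1.19 for 3110057O12Rik and 0.92 for Xylt2, a xylosyltransferase of proteoglycan synthesis.

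Egln3 stood at rank 18 (0.963), Slc2a1 at 146 (0.906) and the neighbour Ufsp1 at 208 (0.884). Among the members, Prima1 was at rank 887 (0.682), Chrna3 at 2548 (0.325) and Chrna7 at 4018 (0.0888). Over these 6 libraries the lowest level of Ache was in library 2 at 20% oxygen, and the lowest levels of Prima1, Chrna3 and Chrna7 were in library 1 at 20% oxygen, the library that stood apart.

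**Figure D5:**
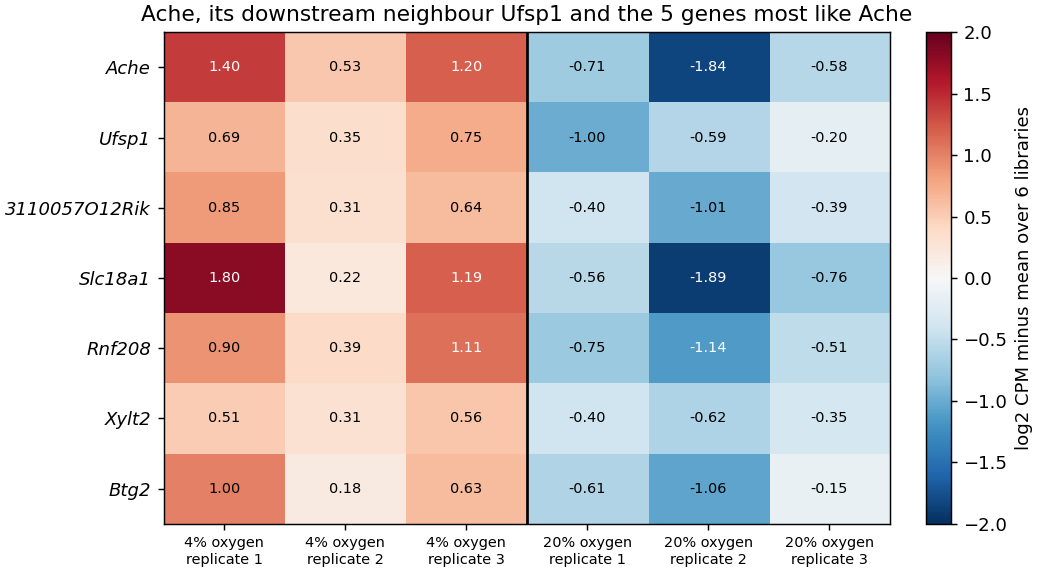
Deviation of log2 CPM from the mean over 6 libraries for Ache, Ufsp1 and the 5 genes most like Ache, with 4% oxygen libraries left of 20% oxygen libraries. Ache runs between 1.40 in library 1 at 4% oxygen and -1.84 in library 2 at 20% oxygen, and every row is above 0 at 4% oxygen and below 0 at 20% oxygen. The 5 genes were picked by their correlation with Ache, which favours that pattern.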

How the data were processed

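RNA was sequenced from 6 libraries, 3 at 4% and 3 at 20% oxygen. The deposited table holds raw read counts per gene and, per the file headers, the authors' RPKM values, scaled to a library total of which gene counts made up 57.6% to 67.8%. Tools named in the submitters' processing notes are HTSeq, Bowtie and TopHat2 2.0.6, with build mm10. The sources used here give no counting mode, strand use or treatment of multiply mapped reads. The labels disagree on the kit, naming stranded total RNA with ribosomal removal in one place and an mRNA kit in another. All sample columns were matched to a sample.

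Counts as deposited were tested in R 4.3.3 with edgeR 4.0.16 (filterByExpr, minimum count 10 and minimum total 15, TMM, quasi-likelihood test, two-sided, no covariate). Benjamini-Hochberg adjustment ran over the 14979 genes that passed. The fits were also run on simulated counts, where recovery was required only at a spread well below that of these libraries. The SE is the log2 fold change over the square root of F. CPM is TMM scaled, and ratios between genes used the authors' RPKM and exact permutation tests. DESeq2 1.42.0, limma-voom (limma 3.58.1), other scalings, no filter, halved counts, a replicate block and leaving out each library were alternatives. Totals of 124259152 to 163695286 counts leave the spread between libraries (common biological coefficient of variation 0.359), not counting error, as the main limit for abundant genes. The labels do not say what a replicate number marks. Deviations from group means correlated at 0.273, 0.434 and 0.223 between libraries numbered 1, 2 and 3. Pairing by number thus rests on these same counts, and the block was kept as an alternative.

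Members and lists were chosen with earlier results of these data known. Named were all members, Slc2a1 and Egln3, the 2 tested genes with the smallest p in each of 6 wider sets, tabulated genes within 20 kb of a member, and the 5 genes most correlated with Ache. Chrm4 and the nicotinic subunits in the level comparison, with the muscle genes among the other observations, were named after their values were seen. Of 133 list entries 132 had a row.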

Additional observations from a re-analysis of the deposited data

How the results depend on the processing

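The log2 fold change of Ache was 2.03 with no filter on low counts, 2.01 in DESeq2 and 2.09 with the replicate block, each with an adjusted p under 0.05; under the other scalings, limma-voom, halved counts and each library left out it stayed above 0 and did not pass. Members called higher numbered 1 in those 3 settings, against 0 otherwise. Genes called higher numbered 25 with no filter, 53 in DESeq2 and 11 with the block, and genes called lower 2 with no filter and 6 in DESeq2; with each library left out the lower count ran from 0 to 1, with 1 without library 3 at 4% oxygen. The median of the wider list ran from -0.028 to 0.14 with each library left out, highest without library 1 at 20% oxygen. Over 30 single genes and 13 alternatives, 374 of 390 values kept their direction and 16 did not. With each library left out in turn, log2 fold changes ran from -0.082 to 0.77 for Chat, -0.13 to 0.51 for Chrna7, -0.15 to 0.36 for Chrnb4, -1.79 to 0.55 for Chrna4, -0.25 to 0.43 for Srrt, -0.40 to 0.10 for Trip6, -0.35 to 0.073 for Eaf1 and -0.61 to 1.31 for 1700024G13Rik, which was also 0.43 in limma-voom and 0.40 with the block. The cause was not tested. The block changed no call other than that of Ache, Slc18a1, Slc2a1 and Egln3 among the genes named. No setting moved the median of all genes by more than 0.031 on the log2 scale. Bche, Slc18a3, Slc5a7 and Colq had too few counts to pass the filter.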

Other observations

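Transcripts of the muscle form of the nicotinic receptor were present at low levels. Chrna1, its α1 subunit, had 4.31, 3.35 and 5.12 CPM at 4% oxygen, against 5.30, 3.34 and 8.70 CPM at 20% oxygen, and the groups overlapped (edgeR log2 fold change -0.44, SE 0.39, adjusted p = 0.996). Chrnb1 had 1.51, 1.11 and 0.759 CPM at 4% oxygen, against 2.25, 0.595 and 0.675 CPM at 20% oxygen, also with overlap. The δ and ε subunits Chrnd and Chrne had at most 18 counts in a library at 4% oxygen and at most 24 at 20% oxygen. Chrng, the γ subunit of fetal muscle, had 0, 10 and 10 counts at 4% oxygen, against 16, 8 and 18 counts at 20% oxygen. Rapsn, the scaffold that clusters these receptors, had 18, 38 and 26 counts at 4% oxygen, against 10, 12 and 2 counts at 20% oxygen, without overlap but with an edgeR adjusted p of 0.996. Myog, a transcription factor of muscle differentiation, had 2.52, 1.80 and 2.42 CPM at 4% oxygen, against 1.303, 0.809 and 2.40 CPM at 20% oxygen, while Myod1 and Myf5 were at 3 counts or fewer in every library.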
